A study of Mus musculus with 11 samples.

Results

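Injury-profile nuclei at IOT day 75 were nuclei of the trigeminal ganglion that held RNA of injury genes in a library made 75 days after part of the infraorbital nerve had been cut. They were selected on measured values. The gate genes were Atf3, Sema6a, Sprr1a, Itgb6, Flrt3 and Gadd45a, and a nucleus belonged to the set when the UMIs (unique molecular identifiers, 1 per captured transcript) of these 6 genes summed to at least 4 with at least 2 of the genes detected. This held for 171 of the 3634 nuclei of the day 75 library, or 4.71% (95% exact binomial interval 4.04 to 5.45%), out of 37181 nuclei in all 10x libraries. A further 2075 day 75 nuclei had 0 UMIs of all 6 genes and served for comparison, and 1388 lay between. IOT (infraorbital transection) is a spared nerve injury in which superficial branches of the infraorbital nerve are cut and deeper ones stay intact, and the ganglion of the cut side is taken. All IOT mice were C57BL of the wildtype, males and females pooled and over 6 weeks of age, with 10 mice in each library of day 2, 7 and 21 and 6 mice at day 75. Beside them stood an uninjured C57BL control library (10 mice), a facial injury library (skin cuts, C57BL, 10 mice) and a library from mice with scratch lesions (10 mice of a mixed FVBN, C57BL and 129 background that carried the transgenes Fos-tTA; tetO-mCherry-2A-Gnaq*, in which the Fos promoter drives the first of them). Nuclei were enriched with an antibody to NeuN, a nuclear antigen of neurons, and each condition is 1 library of pooled mice, so nothing within day 75 could be tested and every interval below covers counting error only. The ganglion holds cut and spared neurons together, and the labels do not say which nuclei came from cut axons.

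A sensory neuron whose axon is cut switches on a program led by stress-responsive transcription factors such as Atf3, together with Sox11 and Jun. Growth-cone proteins, cytoskeletal regulators, matrix enzymes and peptides such as galanin and neuropeptide Y rise in this program, while ion channels, receptors and peptides that define the sensory class fall. Regrowth to a target is accompanied by a return of the earlier pattern, and neurons that fail to reconnect can keep the program for long periods.

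Sema6a, which encodes a transmembrane semaphorin, supplied 38.7% of the 1551 gate UMIs in the 171 nuclei, and the integrin subunit gene Itgb6 supplied 34.6%. The transcription factor Atf3 supplied 7.67%, the adhesion protein gene Flrt3 9.87%, the stress gene Gadd45a 4.84% and Sprr1a, a small proline-rich protein of growing axons, 4.38%. Atf3 was detected in 64 of the 171 nuclei (37.4%) and Sema6a in 159 (93.0%). The rule therefore rested mainly on Sema6a and Itgb6, and these 6 genes are not used as results. The gate sums ran from 4 to 33 UMIs with a median of 7, and 58 nuclei had 10 or more. Just inside the limit were 46 nuclei with a sum of 4, whose Sox11 level was 69.8 CPM (UMIs of the gene scaled to the summed UMIs of the nuclei, without the gate genes). Just outside were 68 nuclei with a sum of 3 from at least 2 genes, with Sox11 at 55.7 CPM, and 27 nuclei with 4 or more UMIs of a single gene, with Sox11 at 160 CPM.

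The gated share was 14.0% at day 2 (647 of 4611 nuclei), 7.91% at day 7 (319 of 4033), 6.18% at day 21 (250 of 4046) and 4.71% at day 75. In the control 15 of 4368 nuclei passed (0.343%, interval 0.192 to 0.566%), in facial injury 1.43% and in scratch lesions 3.54%. Sprr1a is not listed in the control table, so the gate had 5 genes there. The day 75 library was the deepest, with a median of 4178.5 UMIs per nucleus against 1747 to 3323 in the other 10x libraries, and a deeper nucleus passes the gate more easily. After every nucleus was thinned to 1104 UMIs, 20 day 75 nuclei passed (0.550%, interval 0.337 to 0.849%), against 4.29% at day 2, 3.09% at day 7 and 1.56% at day 21. In the thinned control 0 of 4368 nuclei passed (interval 0 to 0.0844%). The thinned share was 0.436% (0.302 to 0.609%) in facial injury and 1.14% in scratch lesions. On both scales the day 75 share lay below those of the earlier IOT libraries and above the control. Its order with scratch lesions turned round after thinning, and its interval then overlapped that of facial injury. Between 16 and 40 cell barcodes of the day 75 library also occurred in each other 10x library.

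**Figure D1:**
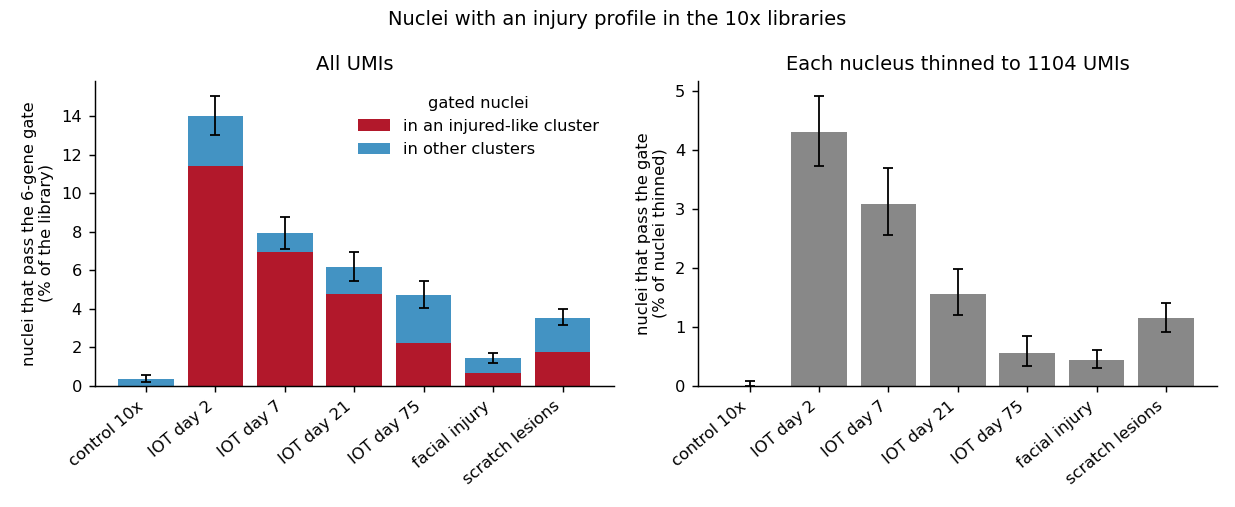
Left, nuclei that pass the gate as a percent of each 10x library, split by whether they lie in an injured-like cluster of that library; right, the same percent after thinning each nucleus to 1104 UMIs. Error bars are 95% exact binomial intervals for counting error. Day 75 stands at 4.71% on the left, of which the injured-like cluster holds 2.20%, and at 0.550% on the right.

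Only part of the gated nuclei formed a group of their own. Clustering of the day 75 nuclei, from which the gate genes, all gene lists and all class markers were withheld, gave 18 clusters, and 1 of 97 nuclei carried the withheld markers of injured neurons. It is called the injured-like cluster here. It held 80 of the 171 gated nuclei (46.8%, interval 39.1 to 54.6%), 17 nuclei below the gate and 0 of the 2075 nuclei with no gate UMI. The share of gated nuclei inside it was 10.6% for gate sums of 4 to 5 (7 of 66), 48.9% for 6 to 9 (23 of 47) and 86.2% for 10 or more (50 of 58). Nuclei with a sum of 3 were inside in 8.82% of cases, close to the 10.6% just above the limit, within overlapping intervals (3.31 to 18.2% and 4.37 to 20.6%). In the other IOT libraries more of the gated nuclei lay in injured-like clusters: 81.5% at day 2, 88.1% at day 7 and 77.2% at day 21. The label of an injury profile thus held for the 80 nuclei by markers that the gate did not use, whereas the other 91 are named below by the gate alone. At Leiden resolutions 0.6 and 2, in place of 1, such a cluster held 79 of the 171.

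**Figure D2:**
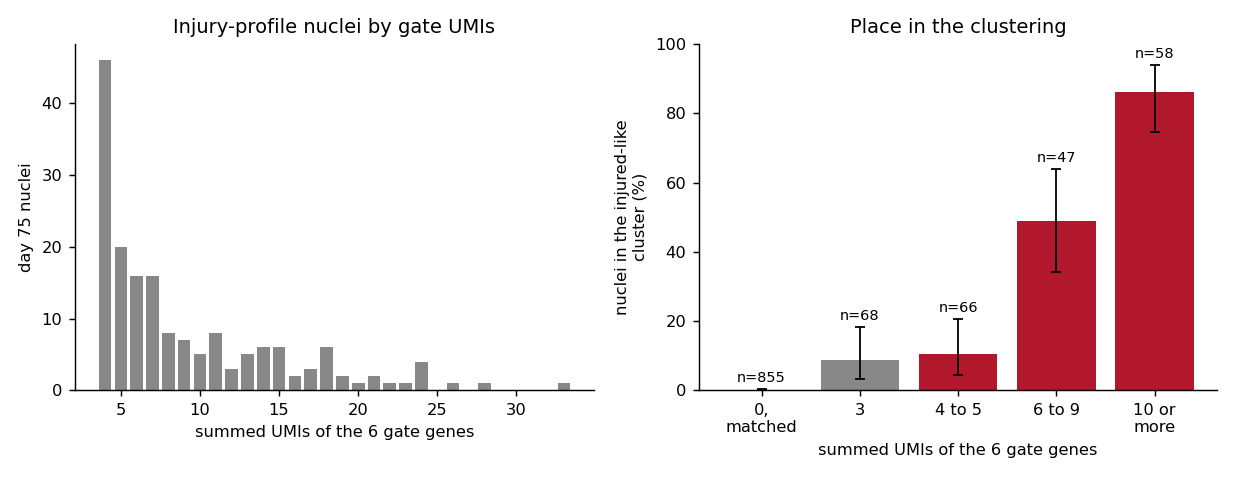
Left, the number of day 75 injury-profile nuclei at each sum of gate UMIs; right, the percent of nuclei inside the injured-like cluster by gate UMIs, with 95% exact binomial intervals and the number of nuclei above each bar. Gray bars are nuclei that did not pass the gate. The share inside rises from 10.6% at 4 to 5 UMIs to 86.2% at 10 or more.

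The 91 gated nuclei outside were deep nuclei just past the limit. Of these, 59 had gate sums of 4 to 5, their median depth was 8176 UMIs against 5193 for the 80 inside and 4178.5 for the library, and 25 of the 91 were among the deepest 5% of nuclei, against 3 of the 80. They were spread over clusters: 14 in the C5 cluster (8.14% of it, marked by Cadps2 and Ntrk2), 14 in a cluster led by Scd3 and Spint2, 12 in a cluster led by Calb2 and Dcc, 10 in a cluster led by Col19a1 and Ntng1, and 9 in a cluster led by Ano1. The clusters led by Calb2 and by Cadps2 had high Sema6a in their nuclei that did not pass the gate (180 and 108 CPM), and only 33.3% and 32.0% of their nuclei had 0 gate UMIs, compared with 57.1% of the library. The nociceptor cluster C13 (Grik1, Lpar3) held 3 and the peptidergic cluster C7-10 held 1, while C11 and C12 held 0. In the cluster led by Cd74, Flt1 and Apoe, genes of cells other than neurons, 6 nuclei were gated, 3 of them with gate sums of 10 or more.

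Atf3 belongs to the family of factors that bind AP-1 and ATF/CRE sites. Promoters of 2 genes that were high in the 80 nuclei are shown, both picked because they held the AP-1 motif. Whether Atf3 binds there was not tested. Among the 27025 genes with a RefSeq promoter (GRCm38.p6, 250 bases before to 50 after the start) 5.95% held the AP-1 motif TGACTCA and 2.03% the ATF/CRE motif TGACGTCA, on either strand. Of the 11 induced genes named by the study, 9 had a promoter in the table, and 1 of these, Nts, held AP-1 and 0 held ATF/CRE. Of the 9 repressed genes with a promoter, 0 held either motif. Over all 327 named or listed genes with a promoter 3.98% held AP-1 and 2.75% held ATF/CRE. The stretches before the start are given below 5′ to 3′ with the motif, as read on the gene's strand (TGAGTCA), in capitals. They lie on the minus strand at chr10:102490549-102490668 for Nts and chr8:61591140-61591259 for Palld. The motif begins 207 bases before the start of Nts and 54 before the Palld start used. That Palld start lies inside the gene (chromosome 8 from 61511433 to 61902690) and is not its outermost start.
Nts: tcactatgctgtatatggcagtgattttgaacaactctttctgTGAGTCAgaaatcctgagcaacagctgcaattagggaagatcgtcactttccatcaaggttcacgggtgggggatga
Palld: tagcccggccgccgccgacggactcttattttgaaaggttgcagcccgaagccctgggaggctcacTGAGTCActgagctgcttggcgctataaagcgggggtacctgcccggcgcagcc

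Inside the injured-like cluster the induced genes were far above and the sensory genes below depth-matched nuclei. The 80 nuclei (median 5184 UMIs outside the gate genes) were set against 400 nuclei with 0 gate UMIs (median 5189), 5 for each. Sox11, a transcription factor of axon growth (chromosome 12 from 27334264 to 27342574 in mm10), stood at 607 CPM (interval 538 to 682) against 62.0 in the matched nuclei, a ratio of 9.78 (7.97 to 12.05). The peptide gene Nts, which encodes neurotensin, stood at 348 against 8.24 CPM, and Npy at 149 against 2.60 CPM. Gal, the galanin gene, reached 69.1 CPM (47.3 to 97.6) against 7.81. These 4 genes were withheld from the clustering, but the cluster was named by 11 withheld markers. They were Sox11, Gal, Itga7, Csf1, Gap43, Cacna2d1, Stmn4, Lmo7, Frem3, Mmp16 and Ecel1. High levels of these markers in the 80 nuclei are therefore not independent evidence.

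Of the 11 induced genes of the study, 9 had a mean of at least 50 CPM and all 9 of those were at least 2-fold higher, as were 208 of the 4163 genes at that level (5.0%), with a median log2 ratio of 2.77 for the list and −0.03 for all genes. The other two, Gal and the macrophage growth factor Csf1 (58.3 against 5.21 CPM), were under that level and had ratios of 8.85 and 11.2. Across all 11 the ratios ran from 3.19 for Myo10, an unconventional myosin of filopodia, to 57.2 for Npy, and every counting interval lay above 1. Mmp16, a membrane metalloproteinase, stood at 965 against 142 CPM and Gfra1, a receptor for the growth factor GDNF, at 877 against 154 CPM. The study chose this list and the repressed list on its injured nuclei, so their directions are not independent evidence. Sox11, Gal, Itga7, Csf1, Lmo7 and Mmp16 of the induced list were also among the markers that named the cluster.

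All 13 repressed genes were at 50 CPM or more, 8 of them were at least 2-fold lower, as were 167 of all 4163 genes (4.01%), and the list's median log2 ratio was −1.36. The kainate receptor subunit Grik1 stood at 320 CPM against 1451, the nociceptor sodium channel Scn10a at 162 against 541 and Trpm3, a heat-activated channel, at 99.3 against 342. The peptide gene Calca stood at 199 against 540 CPM and the μ-opioid receptor Oprm1 at 47.5 against 122. The 5 genes short of 2-fold, Scn9a, Scn1a, Tac1, Cacnb4 and the synaptic gene Snap25, had ratios of 0.537 to 0.781 with intervals below 1.

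**Figure D3:**
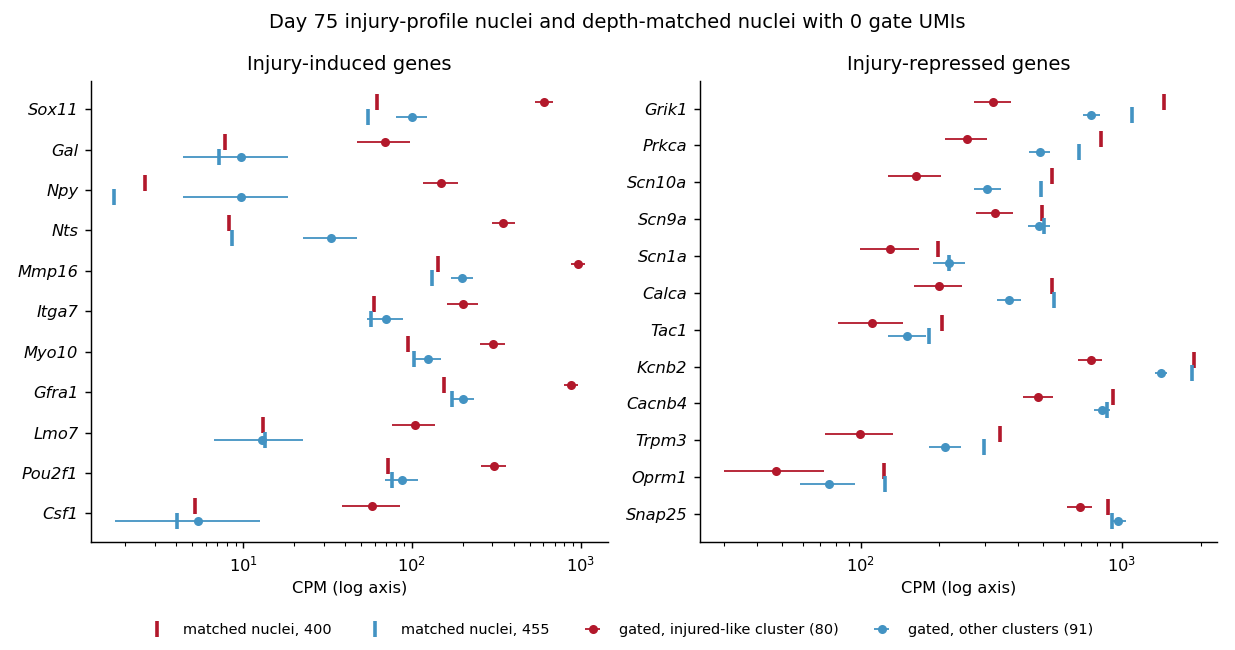
CPM (log axis) of the study's 11 induced genes, left, and 12 of its repressed genes, right, in day 75 gated nuclei inside (red points, 80) and outside (blue points, 91) the injured-like cluster, with 95% exact Poisson intervals for counting error. Vertical ticks are the depth-matched nuclei with 0 gate UMIs of each group. Inside, all 11 points on the left lie above and all 12 on the right lie below their ticks; outside, the points lie closer to theirs.

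Other groups of genes in the 80 nuclei followed their roles unevenly, and each count below stands beside 5.0% of all 4163 genes that were at least 2-fold higher and 4.01% that were lower. Of 7 injury transcription factors at 50 CPM or more, 4 were at least 2-fold higher (Sox11, Jun, Klf6 and Pou2f1) and 0 lower, with Jun at 158 against 69.9 CPM, while Klf7 (1104 against 986) and Stat3 (296 against 264) were close to the matched nuclei. Of 11 regeneration genes, 5 were higher: the growth-cone gene Gap43 (432 against 173 CPM), the stathmins Stmn2 and Stmn4, the matrix gene Frem3 (417 against 3.9) and Cacna2d1, an auxiliary subunit of calcium channels that gabapentin binds, at 3149 CPM (2989 to 3315) against 507. Of these 5, Gap43, Stmn4, Frem3 and Cacna2d1 were among the markers that named the cluster. The cytokine receptor Lifr and its partner Il6st stood at 514 against 402 and 240 against 261 CPM. Integrin and matrix genes were higher in 5 and lower in 1 of 10. Of the lists for the injured classes I1 and I2, the 14 genes of I1 had a median log2 ratio of 1.09 with 7 higher and 0 lower, among them Glis3, a zinc finger factor (512 against 13.4 CPM), Pcdh15, a protocadherin (862 against 46.9) and the kinase Tnik (1570 against 223). Of 9 genes of I2 at 50 CPM or more, 4 were higher and 2 lower, with a median of −0.58. That median depended on the CPM limit. Over all 12 I2 genes, 7 had ratios above 1, all 7 with intervals above 1, and 5 had ratios below 1, 4 with intervals below 1.

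Of 24 potassium channel genes 10 were at least 2-fold lower and 0 higher, against 4.01% and 5.0% of all genes, with a median log2 ratio of −0.70. Kcnip4, a subunit that modulates A-type channels, stood at 1615 against 3966 CPM, Kcnb2 at 758 against 1887 and the M-channel subunit Kcnq5 at 23.8 (11.9 to 42.5) against 164. Kcnq3 went the other way, at 501 against 300 CPM. Of 9 sodium channel genes only Scn10a was 2-fold lower, and Scn8a stood at 475 against 490. Among 7 inhibitory receptors 3 were lower and 0 higher, with the GABA receptor Gabbr2 at 171 against 405 CPM. In the sensory transduction list of 9 genes 3 were lower and 1, the serotonin receptor Htr1f, was higher (505 against 134 CPM), and the touch channel Piezo2 stood at 801 against 1253. Small neuron genes were at least 2-fold lower in 6 of 13 and large neuron genes in 0 of 11, with medians of −0.95 and −0.37. At any level, 16 of 18 small neuron genes had ratios below 1, 13 with intervals below 1. For large neuron genes this held for 14 of 16, 8 with intervals below 1.

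Genes of neuronal upkeep were mostly near the matched level, with counts to be read against the same 5.0% higher and 4.01% lower over all genes. Synaptic release genes were lower in 3 of 23 and higher in 0 (median −0.07), and cytoskeletal genes were higher in 3 of 25, Myo10, Lmo7 and Palld, and lower in 0, with the neurofilament Nefl at 1263 against 1330 CPM. Axon guidance and adhesion genes were higher in 3 and lower in 2 of 27. In the list of neurotrophic and cytokine receptors only Gfra1 of 9 was higher, and identity transcription factors were lower in 3 of 15. Of 5 stress and cell death genes 1 was higher, Hrk, a BH3-only protein that promotes cell death, at 102 against 6.08 CPM, while the stress factor Atf4 stood at 84.2 CPM in both. Immediate early genes were all under the level used. Rbfox3, which encodes the NeuN antigen used for the enrichment, was the 1 of 11 neuron genes that was 2-fold lower (90.7 against 219 CPM, ratio interval 0.295 to 0.569).

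Peptide genes were shared out unequally among the 80 nuclei. At least 1 UMI of Gal, Npy or Nts was found in 66 of 80 (82.5%, interval 72.4 to 90.1%), in 18 of the 91 gated nuclei outside (19.8%, 12.2 to 29.5%) and in 82 of the 855 nuclei matched to all 171 (9.59%), with median depths of 5193, 8176 and 5716 UMIs. Nts alone was in 22 of the 80, Npy alone in 11, both without Gal in 16, and all of them in 9. Gal without the others was in 3. Combinations of 2 or 3 peptides were seen in 30 of 80, 4 of 91 and 3 of 855 nuclei.

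Outside the injured-like cluster the 91 nuclei were close to their own 455 matched nuclei: 7 of 4193 genes were 2-fold higher (0.167%) and 5 were 2-fold lower (0.119%). Of the induced genes 6 reached 50 CPM and 0 of them were 2-fold higher (median log2 0.28), and of the 13 repressed genes 0 were 2-fold lower (median −0.49, all genes 0.04). Sox11 stood at 100 CPM (80.7 to 122) against 54.6, Nts at 33.3 (22.6 to 47.3) against 8.62 and Npy at 9.68 (4.42 to 18.4) against 1.73. Cacna2d1 stood at 473 against 451 CPM and Glis3 at 19.4 (11.5 to 30.6) against 13.8, near the matched level, whereas the intervals of Sox11, Nts, Npy and Frem3 (12.9 CPM, 6.67 to 22.5, against 4.60) lay above it. At any level, 10 of 11 induced genes had ratios above 1 (4 with intervals above 1). Of the 13 repressed genes 11 were below 1 (9 with intervals below 1). Over all 18723 genes with UMIs, 953 intervals lay above 1 and 632 below. Scn10a (305 against 490 CPM) and Grik1 (763 against 1093) were lower by less than 2-fold. The matching was less close than inside, with medians of 8172 and 7146 UMIs, since few deep nuclei had 0 gate UMIs. The 8 nuclei outside with a gate sum of 10 or more are included.

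Taken over all 171 nuclei, with 855 matched nuclei, the differences were diluted: 39 of 4202 genes were at least 2-fold higher (0.928%) and 22 lower (0.524%). The highest ratios belonged to Frem3 (147 against 4.62 CPM, 31.8-fold), Nts (138 against 7.40, 18.6-fold), Glis3 (183 against 12.9, 14.1-fold), the long noncoding RNA Gm26534 (95.5 against 7.22) and Pcdh15 (326 against 49.0). Man1a, a Golgi mannosidase, stood at 89.7 against 18.3 CPM, the kinase gene Btk at 83.3 against 19.1, Inpp4b, a phosphoinositide phosphatase, at 81.1 against 19.2, and Pappa, a metalloproteinase that cleaves IGF-binding proteins, at 108 against 35.5. Among the lowest ratios were Kcnq5 (54.6 against 174 CPM, ratio 0.313), the kinase Camk2a (33.7 against 96.9), the nicotinic receptor subunit Chrna7 (35.9 against 87.3), the calcium channel Cacna1c (282 against 658) and the cold channel Trpm8 (32.3 against 70.1). Of the induced genes 5 of 7 and of the repressed genes 3 of 13 passed 2-fold, Grik1 and Scn10a among them. The 171 were deeper than their matched nuclei (medians 6229 and 5716 UMIs), and with 2 instead of 5 matched nuclei each (medians 6229 and 6227.5) 39 genes were higher and 12 lower, with Grik1 at 616 against 1112 CPM and short of 2-fold.

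The same gate in the earlier IOT libraries gave a comparison that the choice of the day 75 nuclei had not used. Over days 2, 7 and 21 the sums of gated and matched nuclei (2 per gated nucleus, 6 sums) were fitted with edgeR's quasi-likelihood test with library as a block, and 1667 of 12435 genes were higher (13.4%) and 1136 lower (9.14%) in gated nuclei at an adjusted p (Benjamini-Hochberg) under 0.05. The split depended on the scaling: without TMM scaling (edgeR's correction for composition) 1239 genes were higher and 1474 lower, so that 45.7% in place of 59.5% of the called genes were higher. All 11 induced genes were called higher (median log2 fold change 3.11) and all 13 repressed genes lower (−1.25), also without TMM scaling, while DESeq2 called 11 of the 13 lower and not Calca and Snap25. The study chose both lists on injured nuclei of this series, so these directions are not independent evidence. Of the 39 genes 2-fold higher at day 75, 38 were called higher at the earlier days, the exception being Lgi2, and of the 22 lower ones 21 were called lower, the exception being Gm26518. The day 75 calls were thus nearly all genes that also moved at the earlier days. They came from the 4202 genes at 50 CPM or more, whereas 13.4% and 9.14% are shares of all 12435 genes tested. The share among the 4202 genes was not computed, so these shares are not a like background. Potassium channels were lower in 24 of 33 and higher in 2, and the I1 genes were higher in 11 of 14.

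The next question was whether the difference between gated and matched nuclei itself differed at day 75. In a fit of 8 sums with an interaction term, where the single day 75 pair is assumed to vary like the others, 1 of 12263 genes was called larger at day 75 (0.00815%), Rgs5, and 0 were called smaller (0.00%), with 472 and 627 genes at an unadjusted p under 0.05. DESeq2 called 1 and 6. The differences of the 11 induced genes were all smaller at day 75 (median log2 −1.16), 0 of them called, and those of the 13 repressed genes were all less negative (median 0.55), again with 0 called. Without TMM scaling the median of all genes moved by 0.108 and these signs were kept (medians −1.05 and 0.67). Itga7, an integrin subunit, was called smaller in some settings, DESeq2 among them, and not in the main edgeR fit. Its change was −1.595 in the main fit and −1.600 by DESeq2. Over the alternatives other than the trend over days it ran from −1.662 to −1.128. For Cacna2d1 the change was −1.34 ± 0.26 (SE, adjusted p = 0.0772 by edgeR). DESeq2 called it smaller at day 75 (adjusted p = 0.0206), and over 13 alternatives its adjusted p ran from 6.14e-05 to 1.0, with 4 of them under 0.05. For Gal the change was −1.76 ± 0.70 (adjusted p = 0.457). When only gated nuclei inside injured-like clusters were summed, 0 genes were called in either direction (269 and 302 at an unadjusted p under 0.05), and the Sox11 change went from −0.78 to 0.00, with that of Cacna2d1 at −0.63. With these nuclei only, the Itga7 change was −1.128, against −1.595 in the main fit. Outside injured-like clusters lay 91 of 171 gated nuclei at day 75, against 120 of 647, 38 of 319 and 57 of 250 at the earlier days. Whether this larger share accounts for the smaller day 75 differences was not tested. These fits have 2 residual degrees of freedom, and a p above the threshold does not show that the days were alike.

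Within injured-like clusters the levels of single genes could be read library by library. Sox11 stood at 638, 645, 917 and 607 CPM at days 2, 7, 21 and 75, Gfra1 at 757, 926, 656 and 877, and Cacna2d1 at 5607, 3743, 5387 and 3149. Gal stood at 310, 388, 216 and 69.1 CPM. Gal was thus lowest at day 75, with an interval (47.3 to 97.6) below those of the other days, whereas the Sox11 interval at day 75 (538 to 682) overlapped those of day 2 and day 7. The gated nuclei came from 2 injured-like clusters at days 2 and 7, of which 1 was led by Gal (116 and 49 nuclei), and from 1 cluster at days 21 and 75. Gal stood at 1116 and 1689 CPM in the clusters led by it and at 158 and 168 CPM in the other clusters of days 2 and 7, where its intervals also lay above that of day 75. Sox11 stood at 1018 and 1029 CPM in the clusters led by Gal and at 566 and 580 in the other ones. The other peptides had another order: Npy stood at 18.4, 239, 221 and 149 CPM and Nts at 35.3, 215, 525 and 348, both lowest at day 2. After thinning to 1104 UMIs Gal was detected in 18.2%, 17.8%, 16.1% and 3.75% of these nuclei (3 of 80 at day 75, interval 0.780 to 10.6%), and Nts in 3.42%, 15.2%, 25.9% and 28.8%. Frem3 stood at 231, 151, 69.4 and 417 CPM and Glis3 at 137, 419, 401 and 512, highest at day 75 for both. Scn10a stood at 94.9, 34.3, 31.4 and 162 CPM and Grik1 at 301, 106, 90.3 and 320. Their day 75 values were above those of days 7 and 21. They were still under the 342 day 75 nuclei matched to all 171 gated nuclei (503 and 1112 CPM). These are not the nuclei matched to the 80 alone, whose levels are given above. These are single libraries, and none of these genes was called different at day 75 by edgeR in the fit of 8 sums, while DESeq2 called Cacna2d1.

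**Figure D4:**
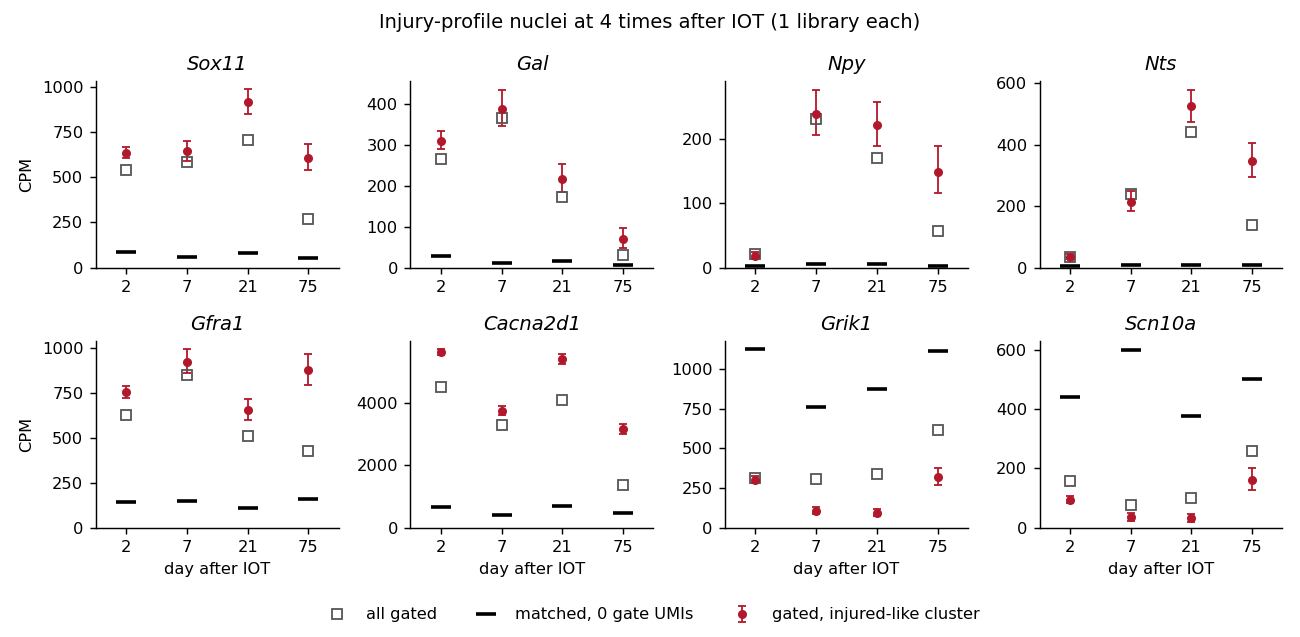
CPM of 8 genes (linear axes from 0) in gated nuclei at 4 days after IOT, 1 library each: red points, gated nuclei in injured-like clusters with 95% exact Poisson intervals; open squares, all gated nuclei; black bars, matched nuclei with 0 gate UMIs, 2 for each gated nucleus. Gal falls to 69.1 CPM at day 75, while Npy and Nts are lowest at day 2; the distance between squares and red points is widest at day 75 for Sox11 and Cacna2d1.

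Genes of other cells were detected in gated and matched day 75 nuclei. The summed satellite glia markers stood at 959 CPM in the 171 nuclei and 872 in the 855, with 13 of 13 markers detected, and the Schwann cell markers at 1054 and 1020. Leukocyte markers summed to 173 CPM (152 to 196) in the 171 nuclei against 137 (128 to 147.5) in the 855, and to 268 CPM (223 to 319) inside the injured-like cluster, most of it from Cx3cr1 (238 against 115 in its own matched nuclei). Vascular markers summed to 238 CPM (207 to 271) outside it against 145 in the 855 nuclei, of which Rgs5 was 193 against 98.8. Without Rgs5 the other 9 vascular markers summed to 44.1 CPM (31.6 to 59.8) outside the cluster and 46.1 in the 855 nuclei. Rgs5 was high in the neuron clusters C5 (770 CPM), C12 (930 CPM) and C3 (466 CPM), and C5 held 14 of the 91 nuclei. The part of glial and leukocyte RNA in the results was not tested. Leaving out the deepest 5% of the library, where nuclei caught together would be most frequent, left 4.14% of nuclei gated, with 72 genes 2-fold higher and 43 lower. No doublet caller was run.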

How the data were processed

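Ganglia were kept in RNAlater and Dounce-homogenized, nuclei were enriched with anti-NeuN and microbeads, and 10x version 2 libraries were made, 1 per condition. The authors deposited UMI counts per gene and nucleus, mapped to mm10 with introns counted. Before that they had dropped nuclei by gene number and by share of mitochondrial UMIs, and had taken out clusters that were not neurons. The submitters' processing notes list Cell Ranger 2.1.0, Seurat 2, STAR 2.5.3a and bcl2fastq 2.17. The annotation they used was not given in the sources used here. Library totals ran from 9135460 to 22003842 UMIs.

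The gated nuclei and gene lists were chosen with earlier results of these data known. Each gated nucleus was matched to 5 nuclei with 0 gate UMIs, nearest in depth, without replacement. CPM were UMIs scaled to the summed UMIs of the nuclei without the gate genes. Genes with a mean of at least 50 CPM and a ratio of at least 2 either way were called. Intervals are 95% exact Poisson or Clopper-Pearson. They cover counting error only, not the spread between nuclei or mice. Clustering (scanpy 1.11.5, Leiden resolution 1, 30 components, 20 neighbors) withheld 450 genes. A cluster was named from withheld markers with thresholds set after seeing the data. Sums over nuclei were tested with edgeR 4.0.16 (TMM scaling, its low-count filter, adjusted p under 0.05), with DESeq2 1.42.0 as an alternative. Scripts were tested on simulated data. To set libraries side by side, each nucleus was thinned to 1104 UMIs, the lowest 10th percentile of the libraries. Nuclei below that were left out, 273 at day 7 and 0 at day 75.

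Named genes are those of the study's induced and repressed lists, the 15 largest day 75 ratios each way, genes called at day 75 against earlier days (the 10 lowest p) and up to 4 members per list, by CPM. Further genes named as members called in a list, the 2 exceptions of the overlap, and Hrk, Rbfox3 and Cx3cr1 were chosen after their values were seen. Coordinates are from GENCODE vM21, which holds 451 of 453 symbols, and promoters from RefSeq. Drop-seq nuclei were not used here, and some genes are not reported here.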

Additional observations from a re-analysis of the deposited data

Results flagged for a closer look

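The difference between gated and matched nuclei was larger at day 75 than at days 2, 7 and 21 for 1 gene of 12263. Rgs5, a regulator of G protein signaling known from pericytes (chromosome 1 from 169655501 to 169695813), had a change of 2.42 ± 0.35 on the log2 scale (SE, adjusted p = 0.0346 by edgeR). In gated nuclei it stood at 18.0, 18.0, 4.42 and 164 CPM at days 2, 7, 21 and 75, and in matched nuclei at 39.4, 61.6, 33.2 and 83.4 CPM, so it was lower in gated nuclei at 3 of the 4 days and higher at day 75. At day 75 the excess lay outside the injured-like cluster (193 against 93.4 CPM), and inside it Rgs5 stood at 106 against 103 CPM. Rgs5 is also 1 of the 10 leading genes of the neuron clusters C5 and C12 at day 75, at 770 and 930 CPM over all their nuclei. C5 held 14 of the 91 gated nuclei outside (15.4%) and 19 of the 855 matched nuclei (2.22%). These 14 had Rgs5 at 1269 CPM (1072 to 1491) and held 147 of its 180 UMIs outside the cluster. The 55 C5 nuclei with 0 gate UMIs, not matched for depth, had it at 519 CPM (429.5 to 621.4). Gated nuclei were thus higher within C5 as well. Without C5 nuclei, a comparison chosen after seeing the data, Rgs5 stood at 40.5 CPM (27.9 to 56.9) in the other 77 gated nuclei outside and 84.9 CPM in the other 836 matched nuclei, so the excess was not present. The 836 were not balanced by cluster: C12 and C3, where Rgs5 stood at 930 and 466 CPM, held 0 and 2 gated nuclei. The other 9 vascular markers summed to 44.1 CPM outside the cluster and 46.1 CPM in the 855 matched nuclei. With gated nuclei of injured-like clusters only, the adjusted p was 0.812 at a change of 2.16. Over 13 alternatives the adjusted p ran from 1.06e-09 to 1.0, with 5 of them under 0.05 and changes between 2.1 and 2.98 outside the fit of a trend over days.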

How the results depend on the processing

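Day 75 ratios depended mostly on which nuclei were taken. The 39 genes higher and 22 lower became 208 and 167 inside the injured-like cluster, 7 and 5 outside it, and 169 and 127 with a gate of 10 UMIs, 3 alternatives added after seeing the data. They became 128 and 87 with a gate of 6 UMIs and 3 genes, 106 and 51 without Sema6a, 74 and 42 without Itgb6, 72 and 43 without the deepest 5% of nuclei, and 135 and 117 after thinning. With a gate of 3 UMIs 20 were higher, with a mean of 100 CPM 21 and 11 were called, and the lower genes numbered 36 against all nuclei with 0 UMIs, 12 with 2 matched nuclei each and 42 without Gadd45a. The gated share was 6.58% and 2.37% with the gates of 3 and 6 UMIs and 0.550% after thinning. Of 532 alternative values for 38 named ratios, 242 kept their sign but lay outside the counting interval of the main ratio. These came from 36 of the 38 genes. Of the 38 named ratios 2 reversed outside the injured-like cluster, Man1a (−0.36) and Fam169a (−0.04).

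Over days 2, 7 and 21, 857 higher and 575 lower genes were called by DESeq2, and 176 and 38 with no library block. Leaving out each library gave 1091 (without day 2) to 1441 higher and 916 to 1165 lower. For day 75 against the earlier days, higher calls were 0 against all nuclei with 0 UMIs, with gates of 6 and 10 UMIs, with no library block, in injured-like clusters and for a trend over days, 2 with no TMM scaling, 56 with no filter on low counts and 3 with facial injury and scratch lesions added. Lower calls were 6 by DESeq2, 1 with no TMM scaling, 105 with no filter, 1 against all nuclei with 0 UMIs and 7 with the 2 libraries added. Leaving out 1 library gave 0 to 74 higher and 0 to 62 lower calls: 74 and 62 without day 2, 33 and 59 without day 21, and 0 and 0 without day 7. This comparison therefore gives no stable list of genes, and the cause of these changes was not tested. The gated and matched sums of a library were paired by the library block in every fit except the 1 with no library block, whose counts are given above. The libraries of different days carry no numbers that pair them.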
